A study of Mus musculus with 9 samples.

Results

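Binding of TGIF1 and MEIS1 was described at the loci of Spi1, Cebpa and Gfi1, the genes of 3 transcription factors of myeloid differentiation. Spi1 encodes PU.1, an ETS factor needed for macrophage and granulocyte development. Cebpa encodes C/EBPα, a leucine zipper factor that commits progenitors to the granulocyte lineage. Gfi1 encodes a zinc finger repressor that favours granulocytes over monocytes. In mice, Spi1 is known to be controlled by an upstream regulatory element as well as its promoter, and Cebpa by a downstream enhancer active in myeloid progenitors. TGIF1 and MEIS1 are both homeodomain proteins of the TALE class. TGIF1 is a repressor and a corepressor of SMAD proteins, while MEIS1 is a cofactor of HOX and PBX proteins and is needed for leukaemias driven by MLL fusions.

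Peaks were chosen by position alone: every deposited peak that overlapped chr2:90870000-91010000 (Spi1), chr7:35850000-36000000 (Cebpa) or chr5:108050000-108250000 (Gfi1), all mm9. These windows span 140, 150 and 200 kb and held 155 of the 182249 peaks in the 8 lists, with 56 at Spi1, 37 at Cebpa and 62 at Gfi1. No peak touched a window edge. The peaks nearest to an edge on the inside lay 8829 bp (Cebpa), 12695 bp (Spi1) and 17762 bp (Gfi1) from it, and those nearest on the outside lay 5598 bp (Spi1), 7397 bp (Cebpa) and 23068 bp (Gfi1) from it.

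The study used chromatin immunoprecipitation with sequencing in C57BL/6 mouse c-kit+ bone marrow cells transformed by the fusion oncogene MLL-AF9, in which all groups also carried the inducible pMIG-TGIF1-ER construct. The groups were TGIF1 4-OHT, TGIF1 EtOH, MEIS1 4-OHT and MEIS1 EtOH: chromatin of cells given 4-hydroxytamoxifen (4-OHT) for 20 h, which activates the TGIF1-ER fusion, or of cells given ethanol (EtOH), precipitated with a TGIF antibody (H-172) or a Meis antibody. Each group had 2 libraries, and nothing in the labels said whether these came from separate cultures. The labels give no 4-OHT-treated cells without TGIF1-ER, so an effect of 4-OHT itself cannot be told apart from one of TGIF1. A 9th sample, an IgG precipitation of untreated cells, was not analysed here. A TGIF1 peak may come from the cells' own TGIF1 or from the fusion, which these lists do not separate.

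The lists differed greatly in length. They held 12141 and 26932 peaks for TGIF1 4-OHT, 2764 and 592 for TGIF1 EtOH, 21173 and 48829 for MEIS1 4-OHT, and 26254 and 43564 for MEIS1 EtOH. They gave position, length and summit, the point of highest read density, but no height or read number. Depth is therefore unknown, and a missing peak does not show that a protein was absent.

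Merging the 155 peaks where they shared at least 1 bp gave 45 sites: 12 at Spi1, 15 at Cebpa and 18 at Gfi1, numbered here along each chromosome. Of these, 24 had a peak in both libraries of at least 1 group (9 at Spi1, 5 at Cebpa and 10 at Gfi1). Both proteins had peaks at 22 sites, MEIS1 alone at 21 and TGIF1 alone at 2. The same split over all merged sites of the series was not computed. The MEIS1 lists together hold more peaks than the TGIF1 lists, so these counts cannot be read as a trait of the windows. Of the 45 sites, 12 came from 1 list only, and 8 of these came from MEIS1 4-OHT replicate 2, the longest list. The sites were 278 to 3372 bp long, with a median of 648 bp. An annotation of mm9 was not used here, so no site was assigned to a promoter, exon or intron, and other genes may lie in the windows. Whether a site coincides with a known enhancer was not tested.

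**Figure D1:**
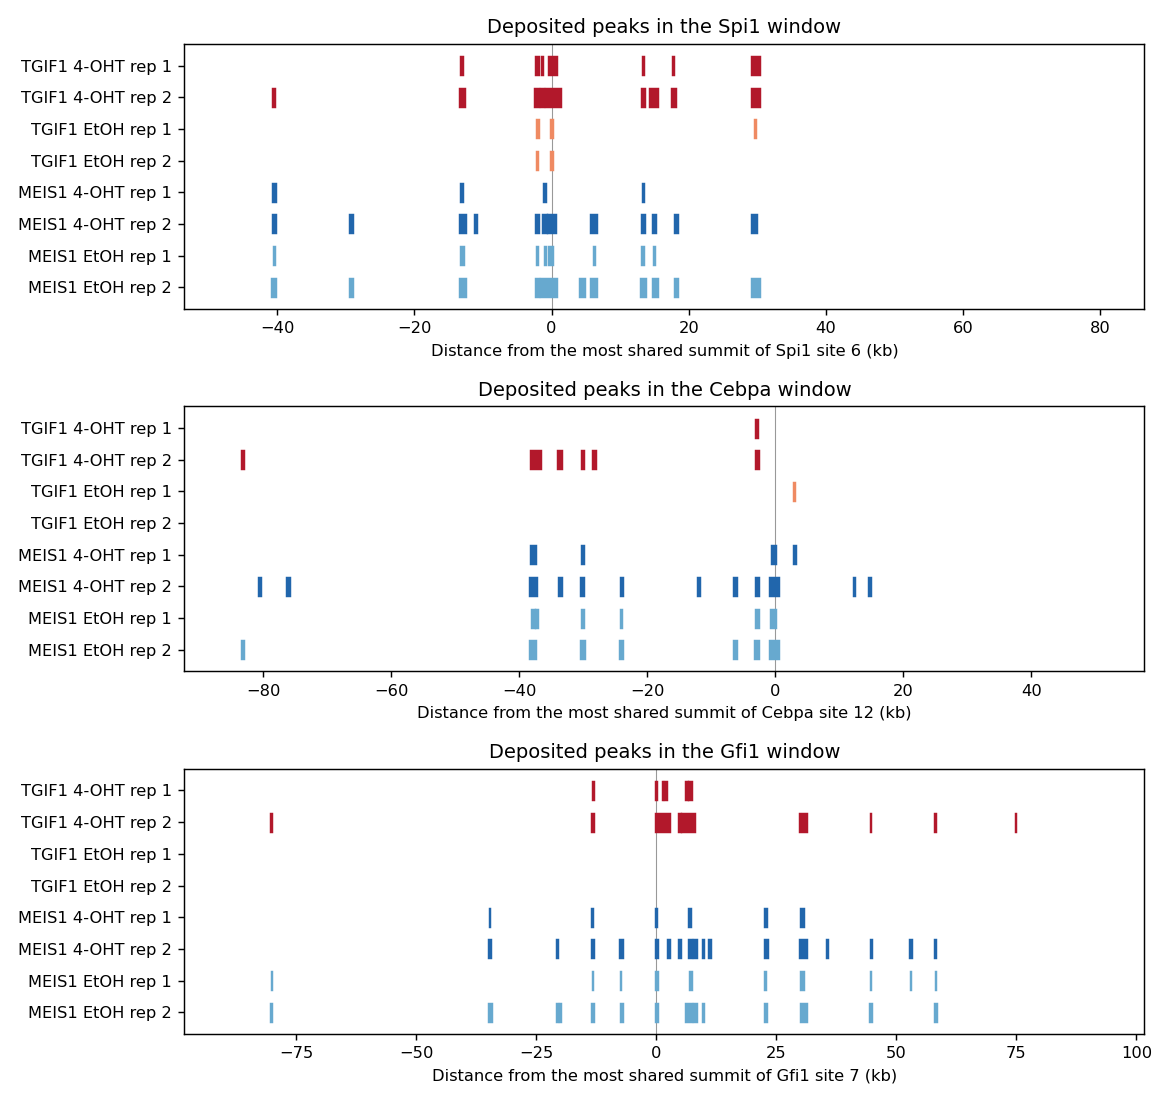
Each bar is a deposited peak (its outline widens short peaks slightly), with 1 row per library and distance in kb from the most shared summit of Spi1 site 6, Cebpa site 12 and Gfi1 site 7; each panel spans its whole window. TGIF1 EtOH peaks appear at 3 places in Spi1, at 1 in Cebpa and at none in Gfi1, while MEIS1 peaks are spread over all 3 windows in every MEIS1 library.

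At Spi1, TGIF1 and MEIS1 peaks were shared most widely at the neighbouring sites 5 and 6. Site 5, at chr2:90921035-90921682, carried a peak in 7 lists, all but MEIS1 4-OHT replicate 1. Its summits lay at 90921472 and 90921468 in TGIF1 4-OHT, 90921469 and 90921476 in TGIF1 EtOH, 90921456 in MEIS1 4-OHT replicate 2, and 90921465 and 90921485 in MEIS1 EtOH. All 7 summits therefore fell within 29 bp. Site 6, at chr2:90921841-90924925, was the only one of the 45 sites with a peak in all 8 lists. It held 12 peaks.

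The most shared point of site 6 lay 2069 bp from that of site 5. There the summits were at 90923543 and 90923538 in TGIF1 4-OHT, 90923535 and 90923532 in TGIF1 EtOH, 90923549 in MEIS1 4-OHT replicate 2, and 90923543 and 90923532 in MEIS1 EtOH. These 7 summits fell within 17 bp, and MEIS1 4-OHT replicate 1 again had none. The peaks around this point were 1339 and 2381 bp long in TGIF1 4-OHT, 465 and 390 bp in TGIF1 EtOH, 1364 bp in MEIS1 4-OHT replicate 2, and 685 and 2487 bp in MEIS1 EtOH. In both TGIF1 4-OHT lists the peak was longer than nearly all others, at the 99.3 and 99.5 percentiles of length. In the TGIF1 EtOH lists it was at the 90.3 and 63.7 percentiles.

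Sites 5 and 6 of Spi1 also held both regions of the 3 windows at which TGIF1 had a peak in both libraries under EtOH, out of 463 such regions in the whole series. Over all 463 regions, 60.5% carried a peak in at least 7 lists, so this breadth is common among them. A TGIF1 4-OHT peak was present at both Spi1 regions and at 99.1% of the 463.

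Within site 6 the 2 proteins also had separate points. TGIF1 4-OHT had a further summit at 90922077 in replicate 1 and 90922060 in replicate 2, with no TGIF1 EtOH or MEIS1 summit within 50 bp. MEIS1 had one at 90922529 and 90922493 in 4-OHT and at 90922521 in EtOH replicate 1. The long peak of MEIS1 EtOH replicate 2 covered both points but has only 1 deposited summit. The nearest TGIF1 4-OHT and MEIS1 summits of this part of the site lay 416 bp apart.

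Site 9 of Spi1, at chr2:90936445-90937255, lay 13.3 kb from the shared point of site 6, and it showed the same kind of offset at closer range. MEIS1 summits were at 90936828 and 90936821 under 4-OHT and at 90936826 and 90936832 under EtOH, within 11 bp of each other. TGIF1 4-OHT summits were at 90936940 and 90936906, and TGIF1 EtOH had no peak. The nearest summits of the 2 proteins lay 74 bp apart, and the TGIF1 and MEIS1 summits did not interleave. The peaks were of ordinary length, 361 and 650 bp in TGIF1 4-OHT, 404 and 626 bp in MEIS1 4-OHT, and 431 and 811 bp in MEIS1 EtOH.

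Sites 11 and 12 of Spi1 were bound by TGIF1 in both 4-OHT libraries and by MEIS1 in the longer list of each treatment alone. At site 11 (chr2:90941001-90941976) the TGIF1 4-OHT summits were at 90941322 and 90941337, and the MEIS1 summits were at 90941691 under 4-OHT and 90941671 under EtOH. The nearest pair lay 334 bp apart. At site 12 (chr2:90952576-90953989) the TGIF1 peaks were long, 1326 and 1383 bp under 4-OHT, against 312 bp in EtOH replicate 1 and none in EtOH replicate 2. MEIS1 summits lay on either side of the TGIF1 summits there, at 90952869 under 4-OHT and 90953679 under EtOH, and the nearest was 314 bp away.

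The remaining named sites of Spi1 had peaks in 3 or all 4 of the MEIS1 lists. Site 1 (chr2:90882695-90883352) had a peak in all 4 MEIS1 lists and in TGIF1 4-OHT replicate 2, with 5 summits within 26 bp. Site 3 (chr2:90910059-90911092) had a peak in both TGIF1 4-OHT and all 4 MEIS1 lists. Its TGIF1 4-OHT summits were at 90910473 and 90910457, beside MEIS1 summits at 90910309 and 90910320 under 4-OHT and at 90910502 and 90910306 under EtOH. Only MEIS1 EtOH replicate 1 had its summit near those of TGIF1. Site 8 (chr2:90929132-90930126) was found in MEIS1 lists alone, in both EtOH libraries and 4-OHT replicate 2. Site 10 (chr2:90937704-90939120) was found in the same MEIS1 lists and in TGIF1 4-OHT replicate 2, and its 4 summits lay within 15 bp.

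At Cebpa, MEIS1 had long peaks at several sites. TGIF1 peaks numbered 1 and 6 in 4-OHT replicates 1 and 2, and 1 and 0 in EtOH replicates 1 and 2. MEIS1 peaks were among the longest of their lists in all 4 libraries at site 12, at chr7:35941296-35942913. They were 856 and 1516 bp long under 4-OHT and 935 and 1618 bp under EtOH, at the 97.8, 98.5, 99.4 and 98.4 percentiles of their lists. The 4 summits, at 35942300 and 35942317 under 4-OHT and at 35942306 and 35942305 under EtOH, fell within 17 bp. No TGIF1 list had a peak at this site.

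Of the 15876 MEIS1 EtOH regions found in all 4 MEIS1 lists, 45.7% had no TGIF1 peak in any list, and in the 3 windows this held for 2 of 12 (Cebpa site 12 and Gfi1 site 12). Among the 193 of them whose MEIS1 peaks were at or above the 95th percentile of length in all 4 lists, 14.5% had no TGIF1 peak. The windows held 2 of these 193, Cebpa site 12 without TGIF1 and Gfi1 site 13 with it. The percentile was chosen after Cebpa site 12 had been seen, and these shares are descriptions.

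Site 4 of Cebpa, at chr7:35903895-35905692, lay 37.3 kb from site 12, centre to centre. It too was found in all 4 MEIS1 lists, with peaks of 975 and 1269 bp under 4-OHT, and of 1049 bp in EtOH replicate 2 and 550 and 565 bp in EtOH replicate 1. Its summits were scattered, at 35904252 and 35904671 under 4-OHT and at 35904448, 35905072 and 35904193 under EtOH, with no pair within 50 bp. TGIF1 4-OHT replicate 2 had a peak of 1746 bp over most of the site with its summit at 35904602, and replicate 1 had none. Site 4 thus had no common MEIS1 summit, whereas site 12 had one.

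Both TGIF1 4-OHT lists shared just 1 Cebpa site, site 11 (chr7:35939056-35939840). Its most shared point, that of the TGIF1 4-OHT summits, lay 2896 bp from the shared point of site 12. The TGIF1 4-OHT summits were at 35939411 and 35939409, and TGIF1 EtOH had no peak. MEIS1 EtOH replicate 2 had its summit at 35939405, while MEIS1 4-OHT replicate 2 and MEIS1 EtOH replicate 1 had theirs at 35939562 and 35939567. MEIS1 4-OHT replicate 1 had no peak.

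The TGIF1 EtOH peak at Cebpa was at another place, site 13 (chr7:35945149-35945518). It was 195 bp long, at the 9.23 percentile of its list, and neither TGIF1 4-OHT list had a peak there. The only other list with one was MEIS1 4-OHT replicate 1. Of the other named sites, site 6 (chr7:35911781-35912643) was in all 4 MEIS1 lists with summits within 13 bp, and the TGIF1 4-OHT replicate 2 summit at 35912151 lay outside their range of 35912217 to 35912230. Site 8 (chr7:35917936-35918532) was in both MEIS1 EtOH lists and MEIS1 4-OHT replicate 2, with no TGIF1.

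At Gfi1, TGIF1 peaks were listed under 4-OHT alone. The TGIF1 4-OHT lists held 6 and 9 peaks in the window, against 0 and 0 in the TGIF1 EtOH lists. A lack of TGIF1 EtOH peaks was usual, since 85.2 and 96.0% of all 200-kb tiles had none in these lists. The 3 sites that both TGIF1 4-OHT lists shared were also in all 4 MEIS1 lists. The same share over all TGIF1 4-OHT regions was not computed, so this cannot be read as a trait of Gfi1. Of all TGIF1 4-OHT regions, 88.9% had a peak in at least 1 MEIS1 list, 60.9% overlapped a MEIS1 EtOH region and 51.0% a MEIS1 4-OHT region. Site 5 (chr5:108134679-108135376) was the most compact: its 6 summits lay within 24 bp, at 108135071 and 108135049 in TGIF1 4-OHT, 108135052 and 108135065 in MEIS1 4-OHT, and 108135047 and 108135055 in MEIS1 EtOH.

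Sites 7 and 9 of Gfi1 were broad under TGIF1. At site 7 (chr5:108148015-108151208) TGIF1 4-OHT replicate 2 had a peak of 3144 bp where replicate 1 had 3 peaks of 419, 361 and 693 bp. MEIS1 covered mainly its left end, with peaks of 452 and 547 bp under 4-OHT and 481 and 678 bp under EtOH, and a further one of 513 bp in 4-OHT replicate 2. At that end the summits were at 108148353 and 108148335 in TGIF1 4-OHT, 108148333 and 108148337 in MEIS1 4-OHT, and 108148312 and 108148317 in MEIS1 EtOH, 6 summits within 41 bp. At site 9 (chr5:108153464-108156835) TGIF1 4-OHT had a peak of 2952 bp in replicate 2 where replicate 1 had 2 peaks of 557 and 687 bp. The 3144-bp and 2952-bp peaks were at the 99.9 and 99.8 percentiles of their list.

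The summits of site 9 of Gfi1 fell at several points. The TGIF1 4-OHT summits at 108155420 and 108155430 were joined by MEIS1 EtOH replicate 1 at 108155440. The other MEIS1 libraries had theirs at 108155182 and 108155185 under 4-OHT and at 108155192 under EtOH replicate 2, and the longer MEIS1 list of each treatment had a second peak with its summit at 108156596 under 4-OHT and 108156585 under EtOH. At Spi1 site 3 and Cebpa site 11, too, 1 MEIS1 EtOH library lay beside TGIF1 and the rest more than 100 bp away. It was not always the same library: EtOH replicate 1 at Spi1 site 3 and Gfi1 site 9, and EtOH replicate 2 at Cebpa site 11. How often this occurs over all TGIF1 4-OHT regions was not computed, so it cannot be read as a trait of the windows.

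Gfi1 site 13 (chr5:108178126-108179685) had long MEIS1 peaks in all 4 lists, 766 and 1480 bp under 4-OHT and 688 and 1540 bp under EtOH, at the 96.3, 98.3, 96.9 and 98.0 percentiles. The MEIS1 summits lay within 19 bp, from 108178695 to 108178714. TGIF1 4-OHT replicate 2 had a peak of 1558 bp there with its summit at 108178828, and replicate 1 had none. Site 12 (chr5:108170673-108171614) was in all 4 MEIS1 lists and no TGIF1 list. Sites 15 (chr5:108192697-108193176) and 17 (chr5:108206224-108206701) had short peaks in each list that held them, namely both MEIS1 EtOH libraries, MEIS1 4-OHT replicate 2 and TGIF1 4-OHT replicate 2. Their peaks were at or below the 16.4 percentile of length, yet the summits fell within 7 and 14 bp. Site 6 (chr5:108140631-108141347) was in MEIS1 lists alone, in both EtOH libraries and 4-OHT replicate 2.

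**Figure D2:**
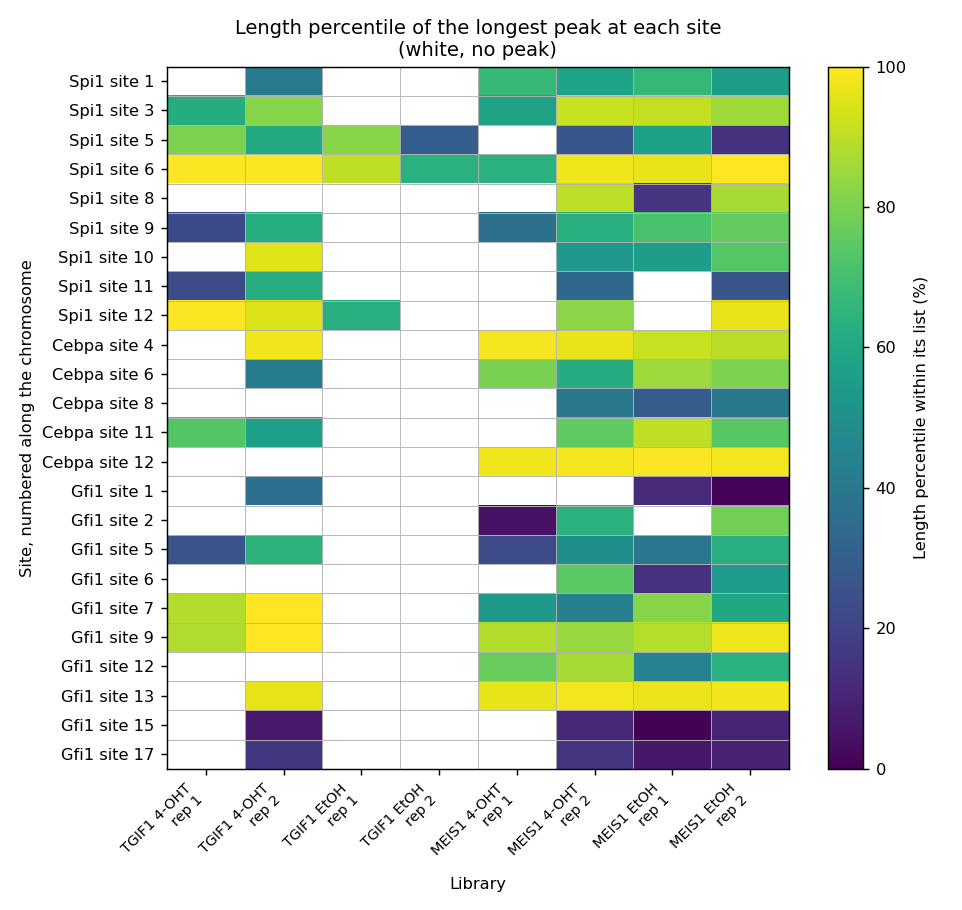
Each cell gives the percentile of the longest peak at a site among all peaks of the same list, ranked by length, for the 24 sites with a peak in both libraries of at least 1 group. The TGIF1 EtOH columns are filled at Spi1 sites 5, 6 and 12 alone, and Cebpa site 12 is at or above 97.8 in all 4 MEIS1 lists and blank for TGIF1.

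TGIF1 peaks in the 3 windows were more numerous after induction. The TGIF1 4-OHT libraries held 14 and 24 peaks and the TGIF1 EtOH libraries held 4 and 2, means of 19.0 ± 7.07 and 3.00 ± 1.41 (SD, n = 2 each). The difference of 16.0 peaks had a two-sided exact permutation p of 0.33, the smallest that 2 libraries against 2 can give. By locus the TGIF1 counts were 7 and 9 under 4-OHT against 3 and 2 under EtOH at Spi1, 1 and 6 against 1 and 0 at Cebpa, and 6 and 9 against 0 and 0 at Gfi1. The groups did not overlap at Spi1 and Gfi1, and they did at Cebpa. More TGIF1 peaks in both 4-OHT than in both EtOH libraries was also seen in 60.2% of all 140-kb tiles and 64.6% of all 200-kb tiles with a TGIF1 peak, so the windows were near the background here.

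Relative to the length of the lists the order turned. Per 10000 peaks of its list, the 3 windows held 11.5 and 8.91 TGIF1 4-OHT peaks against 14.5 and 33.8 TGIF1 EtOH peaks (means 10.2 ± 1.85 and 24.1 ± 13.7, SD, n = 2 each; two-sided exact permutation p = 0.33). The value of 33.8 rests on 2 peaks of 592; without that library (EtOH replicate 2) the difference of -13.9 shrank to -4.25. With every TGIF1 list reduced to its 592 longest peaks it changed sign, to 16.9 per 10000, which is a mean difference of 1 peak (two-sided exact permutation p = 1.0). Spi1 alone carried this order, with 5.77 and 3.34 under 4-OHT against 10.9 and 33.8 under EtOH. This order needs a peak in both TGIF1 EtOH lists. It was seen in 5.3% of 140-kb tiles with a TGIF1 peak, but in 89.8% of the 462 tiles with a peak in both TGIF1 EtOH lists, so it adds little to the presence of those peaks. At Gfi1 the order was the reverse, with 4.94 and 3.34 under 4-OHT against 0 and 0 under EtOH. That order was seen in 44.2% of the 200-kb tiles with a TGIF1 peak.

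MEIS1 peak numbers in the windows did not separate the treatments. The MEIS1 4-OHT libraries held 14 and 41 peaks and the MEIS1 EtOH libraries 24 and 32, means of 27.5 ± 19.1 and 28.0 ± 5.66 (SD, n = 2 each; two-sided exact permutation p = 1.0). The difference of -0.5 peaks changed to 13.0 when the shorter 4-OHT list (replicate 1) was left out, to -14.0 when the longer one was, and to 3.5 when EtOH replicate 2 was. By locus they were 4 and 12 under 4-OHT against 8 and 11 under EtOH at Spi1, 4 and 12 against 6 and 7 at Cebpa, and 6 and 17 against 10 and 14 at Gfi1. In each window the 4-OHT libraries held both the lowest and the highest count. Per 10000 peaks of the list, the 3 windows together held 6.61 and 8.40 MEIS1 4-OHT peaks against 9.14 and 7.35 MEIS1 EtOH peaks, which overlapped (p = 0.667, two-sided exact permutation test). At Spi1 the values did not overlap, 1.89 and 2.46 under 4-OHT against 3.05 and 2.53 under EtOH, as in 10.9% of 140-kb tiles with a MEIS1 peak (p = 0.33, the smallest possible, two-sided exact permutation test).

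**Figure D3:**
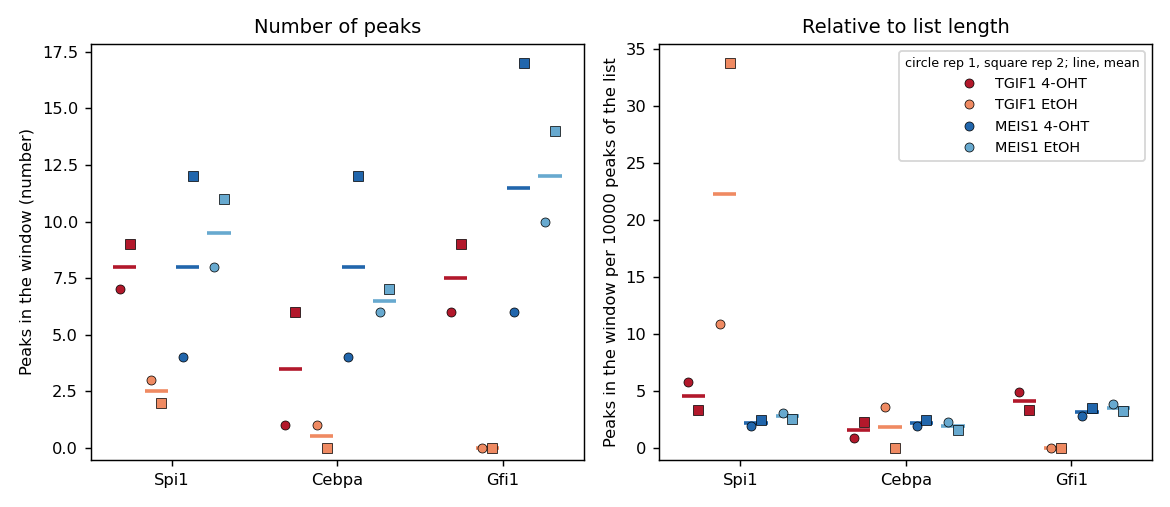
Points are libraries (circle, replicate 1; square, replicate 2) and lines are group means of 2 libraries, for the number of peaks per window (left) and the number per 10000 peaks of the same list (right). TGIF1 4-OHT libraries lie above TGIF1 EtOH libraries in number at Spi1 and Gfi1, and below them at Spi1 when divided by list length.

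The windows held more peaks than most tiles in every list that had a peak in them. In the TGIF1 lists 52.9 to 97.2% of tiles were empty, so 1 peak was enough for this. Tiles ran from the first base of each chromosome and were not filtered by gene or sequence content. Tiles of the same length as each window had a median of 0 or 1 peaks in every list. In MEIS1 EtOH, counts at least as high as at Spi1 were found in 2.99 and 4.18% of 18815 tiles, as high as at Cebpa in 7.62 and 13.4% of 17558 tiles, and as high as at Gfi1 in 3.27 and 4.79% of 13165 tiles. In TGIF1 4-OHT the shares were 0.829 and 3.10% for Spi1, 30.0 and 8.86% for Cebpa, and 3.30 and 6.24% for Gfi1. In MEIS1 4-OHT they were 10.6 and 3.85% for Spi1, 11.7 and 4.69% for Cebpa, and 7.77 and 2.95% for Gfi1. In TGIF1 EtOH they were 0.686 and 0.260% for Spi1 and 11.7% for Cebpa in replicate 1, while Cebpa in replicate 2 and Gfi1 in both had no peak. In both TGIF1 groups, Spi1 thus stood highest among its tiles. No test was made of these shares.

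Regions were also formed within each group, as merged peaks present in both of its libraries; Spi1 site 6 holds 2 such TGIF1 4-OHT regions. The windows held 11 such regions for TGIF1 4-OHT (7 at Spi1, 1 at Cebpa and 3 at Gfi1), 2 for TGIF1 EtOH, 13 for MEIS1 4-OHT and 21 for MEIS1 EtOH. Of the 11 TGIF1 4-OHT regions, 9 overlapped a MEIS1 EtOH region (81.8%, exact 95% interval 48.2 to 97.7%), where 60.9% of all 11143 did. Where an overlap of 50% in both directions was required, also to form the regions, the count was 4 of 9 (44.4%), beside 36.6% of all 8516. With MEIS1 4-OHT regions it was 7 of 11 (interval 30.8 to 89.1%), beside 51.0% of all. A peak in at least 1 MEIS1 list was present at 11 of 11 (interval 71.5 to 100%), beside 88.9% of all. No TGIF1 EtOH peak was present at 8 of the 11 (72.7%, exact 95% interval 39.0 to 94.0%), beside 78.9% of all. Each of these intervals holds the share over all regions, but on 11 regions they are wide, so this says little. They cover counting error only and treat the regions as independent, although the 2 at Spi1 site 6 overlap the same MEIS1 EtOH region. No test was made of these shares.

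In the other direction, 8 of the 21 MEIS1 EtOH regions overlapped a TGIF1 4-OHT region (38.1%, exact 95% interval 18.1 to 61.6%), beside 29.8% of all 22793. Without TGIF1 4-OHT replicate 1, so that a peak in replicate 2 was enough, it was 16 of 21 (76.2%), beside 52.2% of all. With TGIF1 4-OHT regions found in both libraries, the 8 of 21 were 4 of 7 at Spi1, 1 of 5 at Cebpa and 3 of 9 at Gfi1. Of the 13 MEIS1 4-OHT regions, 6 overlapped one, beside 28.8% of all 19864, with 3 of 4 at Spi1, 0 of 3 at Cebpa and 3 of 6 at Gfi1. Cebpa had the lowest share in both, on 5 and 3 regions. TGIF1 4-OHT replicate 1 held just 1 peak in the Cebpa window, which limits both counts.

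Of the 21 MEIS1 EtOH regions, 12 overlapped a MEIS1 4-OHT region (57.1%, exact 95% interval 34.0 to 78.2%), beside 69.7% of all, and 1 lacked MEIS1 peaks under 4-OHT altogether (4.76%, exact 95% interval 0.12 to 23.8%), beside 2.91% of all. Leaving out MEIS1 4-OHT replicate 2, the longest list, made this 9 of 21, or 42.9%, beside 29.9% of all. The region found with all lists was Gfi1 site 1, at chr5:108067762-108068270. It was short in both MEIS1 EtOH lists, 256 bp at the 12 percentile and 374 bp at the 1.05 percentile, and TGIF1 4-OHT replicate 2 had a peak of 509 bp over it. The TGIF1 summit at 108068025 lay 10 and 17 bp from the MEIS1 EtOH summits at 108068035 and 108068042. None of the 13 MEIS1 4-OHT regions lacked a MEIS1 EtOH peak, beside 3.22% of all, with an exact 95% interval of 0 to 24.7%; of the 41 peaks of MEIS1 4-OHT replicate 2 taken alone, 11 lacked one (26.8%), beside 18.4% of all 48829. Gfi1 site 2 (chr5:108113251-108114093) came nearest, with peaks in both MEIS1 4-OHT libraries and in EtOH replicate 2 alone.

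Summits of the 2 proteins were often apart at Spi1. In 4 of its 7 TGIF1 4-OHT regions the nearest TGIF1 and MEIS1 summits lay more than 50 bp apart (74, 314, 334 and 416 bp), against 0, 3 and 29 bp in the rest. In the regions with gaps of 334 and 416 bp, the summits of the overlapping MEIS1 peaks all lay outside the region. The regions with gaps of 314 and 334 bp had only 2 MEIS1 summits to compare, against 3 to 6 in the others. In the Cebpa region the gap was 4 bp, and in the Gfi1 regions it was 2, 2 and 10 bp. At Spi1 site 3, Cebpa site 11 and Gfi1 site 9, however, 1 MEIS1 EtOH library alone gave the short gap. The nearest summits of the other MEIS1 libraries with a peak there lay 137 to 167 bp from those of TGIF1 at Spi1 site 3. At Cebpa site 11 they lay 151 to 158 bp away. At Gfi1 site 9 they lay 228 to 248 bp away. Separate summits were thus not confined to Spi1. Of all 9907 TGIF1 4-OHT regions with a MEIS1 peak, 18.7% had a gap above 50 bp. Spi1 holds 7 regions, and no test was made of the difference, since the gap was examined after the summits had been seen. A longer peak covers more ground but still has 1 deposited summit, and MEIS1 lists with more summits in a region give a smaller nearest gap.

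**Figure D4:**
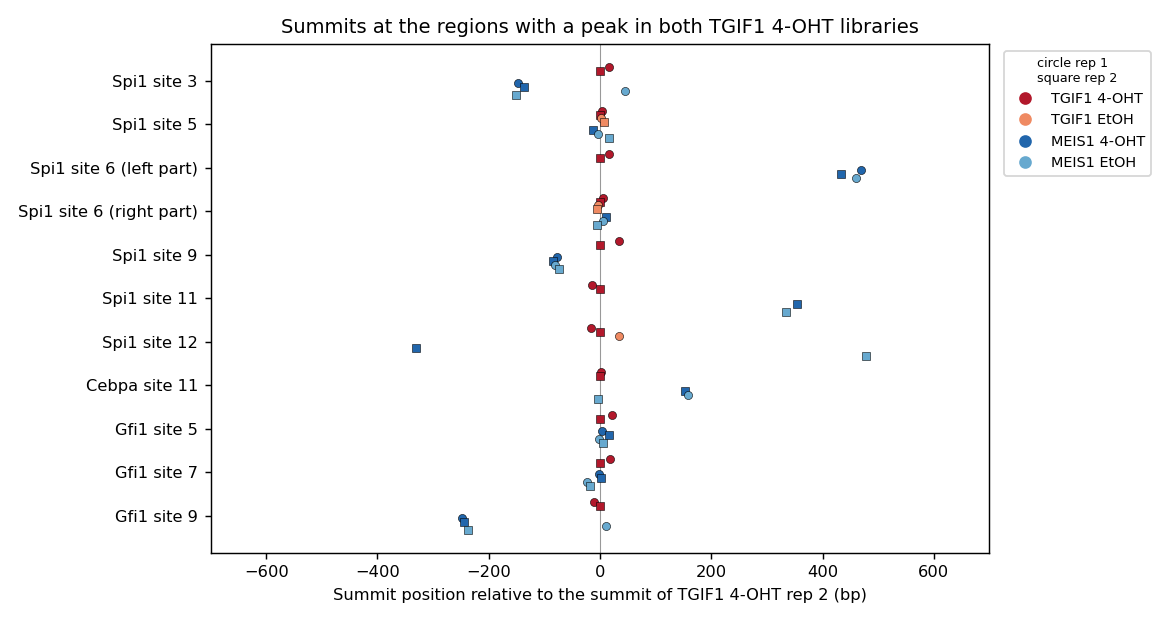
Summit positions in bp relative to the TGIF1 4-OHT replicate 2 summit, for the 11 regions that both TGIF1 4-OHT lists shared, with 1 point per deposited summit; a few summits further away fall outside the axis. TGIF1 and MEIS1 summits coincide at Spi1 site 5, the right part of Spi1 site 6 and Gfi1 sites 5 and 7, and lie apart at Spi1 sites 9, 11 and 12 and the left part of site 6.

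Over pairs of overlapping peaks in the windows, the median distance between TGIF1 4-OHT and MEIS1 EtOH summits was 26.5 bp (8 pairs), 138 bp (12 pairs), 26.0 bp (19 pairs) and 74.0 bp (21 pairs) for the 4 pairs of libraries, beside 28 to 31 bp over all overlapping pairs of the series. The pairs with MEIS1 EtOH replicate 1 gave the short distances and those with replicate 2 the long ones. With MEIS1 4-OHT the medians were 112, 151, 121 and 85.0 bp on 5 to 23 pairs, also beside 28 to 31 bp. Between libraries of 1 protein the median was 17.0 bp between the TGIF1 4-OHT replicates (15.0 bp over all) and 10.0 to 20.0 bp between MEIS1 4-OHT and MEIS1 EtOH libraries (13.0 to 17.0 bp over all). It was 3.0 to 8.0 bp between TGIF1 4-OHT and TGIF1 EtOH libraries (17.0 to 23.0 bp over all) and 5.0 bp between the TGIF1 EtOH replicates (20.0 bp over all), on 2 or 3 pairs each, all at Spi1. The same peak enters several pairs, so these are descriptions without a test.

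Sequence at the peaks was not examined, and no mm9 genome was used here. RefSeq promoter windows of 300 bases in GRCm38.p6, which were not placed on the mm9 peaks, were matched for Cebpa (1 window) and Gfi1 (2 windows). None of these 3 windows holds TGACAG, the core bound by TGIF and MEIS proteins, TGATTGA, a core of PBX and HOX proteins, or GAGGAAG, a core of PU.1, on either strand. Of all 32851 promoter windows, 19.2%, 2.70% and 13.6% hold these motifs, so a lack of them in 3 windows says little. No window was matched for Spi1, whose promoter was thus not examined.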

How the data were processed

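Peak lists of 8 chromatin immunoprecipitation libraries, 2 in each of 4 groups, were analysed; groups and replicate numbers come from the sample titles. Per the submitters' processing notes Bowtie 0.12.7 and the mm9 build were used. One list, MEIS1 4-OHT replicate 2, names MACS 1.4.2 per the file headers. For the rest, the peak caller is not given in the sources used here, nor are thresholds, controls and filters for any list. The deposited lists give chromosome, start, end, length and summit for each library, counted from 1, with no score or read number, so depth per library is unknown. Per the labels' protocols, chromatin was sonicated to about 300 bp and E. coli DNA was added up to 2 ng.

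Peaks overlapping the 3 windows were taken and merged at 1 bp of overlap. Every merged site with a peak in both libraries of at least 1 group is named. Summit positions are start plus the deposited offset minus 1; they were linked within 50 bp to describe summits shared by lists. Length percentiles are ranks within a list. Peak numbers were compared by two-sided exact permutation tests over libraries. Intervals are exact binomial (Clopper-Pearson, 95%). Tiles of the window's length covered each chromosome from its first base. The members and lists were chosen with earlier results of these data known.

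Alternatives tried were overlap of 50% in both directions, centres within 200 bp, the longer 50% of every list, lists of equal length (the 592 longest TGIF1 or 21173 longest MEIS1 peaks), the union of replicates, summits in the window, a replicate block and each library left out. Summit linking, the summit gap, the tiles, the length percentile of 95 and other summit distances were chosen after seeing the data. P-values measure only the spread between these libraries, which may be technical. Python 3.11.15, numpy 2.4.6, pandas 2.3.3, scipy 1.17.1 and matplotlib 3.10.9 were used. Overlap counts were checked with bedtools 2.31.1 and were equal in 112 of 112 comparisons of 2 lists, and tested on simulated data, where 400 of 400 planted overlaps were found.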

Additional observations from a re-analysis of the deposited data

How the results depend on the processing

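The difference in TGIF1 peak number between 4-OHT and EtOH (16.0) stayed positive in all 8 alternatives, from 1.00 with lists of equal length to 21. Most of these could not turn it. The replicate block leaves the mean difference as it is by construction. Both 4-OHT counts lie above both EtOH counts, so leaving out 1 library, which gave 11 to 21, could not turn it either. The difference per 10000 peaks of the list (-13.9) turned to 16.9 with lists of equal length; it ranged from -23.6 to -4.25 without single libraries. The MEIS1 differences had no stable sign: without single libraries the number ranged from -14.0 to 13.0 and the value per 10000 from -1.64 to 0.159.

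The share of TGIF1 4-OHT regions with MEIS1 EtOH (81.8%) was 44.4% with a reciprocal overlap of 50% and 100%, on 1 region, with lists of equal length; without single libraries it was 70.8 to 100%. The share of MEIS1 EtOH regions with TGIF1 4-OHT (38.1%) was 7.14% with lists of equal length, 60.6% with the union of replicates and 34.4 to 76.2% without single libraries. Regions lost under 4-OHT (4.76%) were 0% in the upper 50% by length, 12.1% with the union of replicates and 4.17 to 42.9% without single libraries; regions gained (0%) were 28.6% with the union of replicates and 0 to 26.8% without single libraries. TGIF1 4-OHT regions without TGIF1 EtOH (72.7%) were 0%, on 1 region, with lists of equal length and 72.7 to 87.5% without single libraries. The median summit distance of TGIF1 4-OHT and MEIS1 EtOH (50.2 bp, the middle of 4 pairs of libraries) was 130.5 bp with lists of equal length, 20.5 bp with a reciprocal overlap of 50% and 26.2 to 105.8 bp without single libraries. Lists of equal length keep few TGIF1 peaks, and for all other changes the cause was not tested. The same share over all regions was computed only where it is given beside the share in the sections above. The other shares here, such as those with the union of replicates, thus cannot be set against the background. Regions with summits more than 50 bp apart numbered 4, against 5 at 25 bp and 3 at 100 bp; summit clusters holding both proteins numbered 13, against 12 and 18.

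The groups use the same replicate numbers, and the labels do not tie libraries of one number together. With a replicate block the TGIF1 difference was 16.0 peaks (exact sign-flip permutation p = 0.5, the smallest 2 pairs allow) and -13.9 per 10000 (p = 0.5), and the MEIS1 difference was -0.5 peaks and -0.74 per 10000 (exact permutation p = 1.0 each). The block changed no call.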
